A study of Mus musculus with 24 samples.

Results

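Depolarized cortical neurons that carried a serine-to-alanine form of Smarcc2 (S586A) were compared with depolarized neurons that carried the wild-type (WT) protein. The libraries were chosen by their titles, which name the addback construct and the depolarization. They are 5 of the 24 RNA sequencing libraries of the study and 5 of the 20 from cultures at day 18 in vitro (DIV18), with 2 of S586A and 3 of WT. All 5 cultures were primary neurons from the cortex of mouse embryos at embryonic day 16.5. Both groups also received a CRISPR guide RNA against the endogenous Smarcc2 gene, so a knockout is common to them and the added construct is what differs. Activity was blocked overnight with tetrodotoxin (1 µM) and D-AP5 (100 µM), and KCl (50 mM) was then applied for 30 min to depolarize the cells. The other DIV18 groups entered the same fit. They were a non-targeting guide (NT) and the Smarcc2 knockout with empty vector, both unstimulated and under KCl, and, unstimulated only, the WT addback (2 libraries) and the S586E addback (3 libraries). Cultures at day 7 in vitro (DIV7), of wild-type neurons treated with DMSO, served only to pick a list of genes and did not enter this fit. The strain and the sex of the embryos are not given in the sources used here.

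Smarcc2, also called BAF170, is a core scaffold subunit of the BAF (mammalian SWI/SNF) complexes, which use ATP to move nucleosomes and open chromatin at enhancers and promoters. In neurons, membrane depolarization lets calcium enter the cell, and calcium-dependent kinases then switch on early-response genes such as Fos and Npas4 within minutes. Replacing a serine by alanine removes the hydroxyl group that a kinase could phosphorylate, and replacing it by glutamate is commonly used to imitate the phosphate's charge. The series states that the constructs were made to study phosphorylation of Smarcc2 serines, and the comparison therefore asks how the transcriptome of depolarized neurons differs when this serine cannot be phosphorylated. No library of S586A neurons at rest was analysed here, so a response to KCl could not be computed for S586A. Per the labels' protocols the cortex of each embryo was a biological replicate, and the labels do not say whether all cells of a culture took up the guide or the construct.

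The codon in question was looked up in the mouse gene (Smarcc2, ENSMUSG00000025369.15, GRCm38 chr10:128459248-128490482, plus strand). The labels do not say from which protein form, or from which species, the residue number in S586A counts. Translation of the coding transcripts in GENCODE M21 placed a serine at that residue number in Smarcc2-202 (1130 residues), in exon 19 of 29, with codon TCC at chr10:128482095-128482097. In Smarcc2-201 (1099 residues) and Smarcc2-203 (1213 residues), the residue with that number is an asparagine, and the same TCC codon encodes residue 555, in exon 18 of 28. The following 93 bases of each messenger RNA are printed 5′ to 3′ because they show where the forms diverge, and the capitals mark the shared TCC codon.
Smarcc2-202: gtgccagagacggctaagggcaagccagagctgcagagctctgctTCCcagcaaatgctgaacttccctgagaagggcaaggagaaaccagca
Smarcc2-201 and Smarcc2-203: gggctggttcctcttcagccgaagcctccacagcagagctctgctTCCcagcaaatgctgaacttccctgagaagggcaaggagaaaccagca
The sequences differ only upstream of the serine codon, where an additional exon is present in Smarcc2-202.

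Smarcc2 RNA was far above the knockout level in both addback groups and was higher with S586A. The 3 WT libraries held 895, 737 and 1089 CPM (counts scaled to a common library total), and the 2 S586A libraries held 1340 and 1303 CPM. Both S586A libraries lay above all 3 WT libraries. The means were 907 ± 176 CPM (SD, n = 3) and 1322 ± 25.9 CPM (SD, n = 2), and the fitted log2 fold change was 0.54 (95% interval 0.26 to 0.83, edgeR quasi-likelihood test, Benjamini-Hochberg adjusted p = 0.338). The unadjusted p was 8.33e-04. When single libraries were left out, the log2 fold change lay between 0.41 (without WT replicate 2) and 0.70 (without WT replicate 3).

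The other groups put these levels in context. Depolarized NT neurons held 274 and 283 CPM of Smarcc2, and depolarized knockout neurons with vector held 49.1, 47.5 and 60.0 CPM. Against vector, Smarcc2 was higher by a log2 fold change of 4.66 with S586A (adjusted p = 4.71e-13) and of 4.12 with WT (adjusted p = 1.56e-12), both called by the edgeR quasi-likelihood test. In each of these contrasts Smarcc2 was 1 of 2 genes called (0.00955% of those tested). Against NT, the log2 fold changes were 2.25 with S586A and 1.71 with WT, so both constructs exceeded the endogenous level. At rest, where no library is shared with this comparison, WT addback neurons held 816 and 756 CPM and S586E neurons held 1236, 1164 and 1276 CPM (log2 fold change 0.64, adjusted p = 0.114). Each serine mutant therefore stood above the WT construct of its own condition, although neither difference was called. The counts do not separate RNA of the construct from RNA of the endogenous gene, and Smarcc2 dose moves with the mutation in every comparison of S586A with WT below. Its part in those values was not tested.

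**Figure D1:**
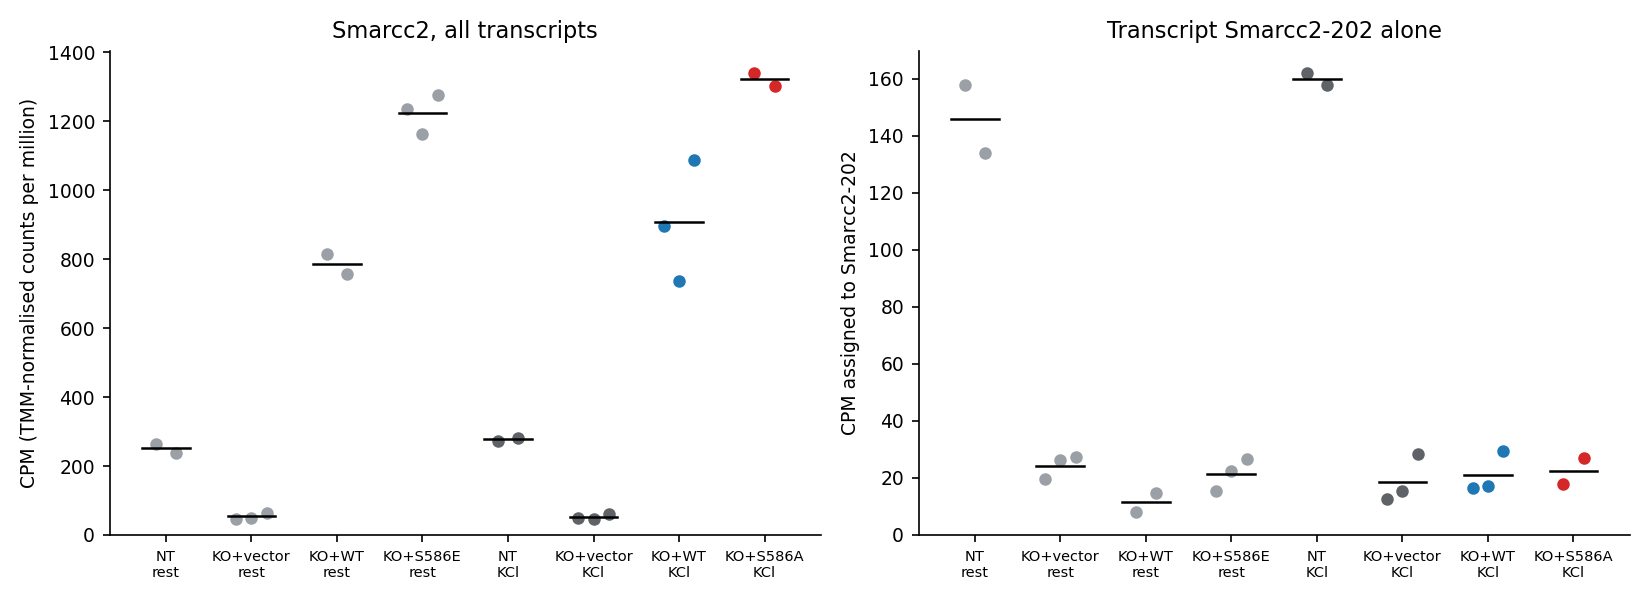
Smarcc2 level in TMM-normalised CPM (vertical axes, linear) in each of the 20 DIV18 libraries by group, for all transcripts of the gene (left) and for Smarcc2-202 alone (right). Points are libraries and bars are group means: both S586A libraries under KCl (1340 and 1303) sit above the 3 WT libraries (895, 737 and 1089), and for Smarcc2-202 only the NT groups stand high (162 and 158 under KCl).

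The assignment of counts to transcript forms was similar in both addback groups. Smarcc2-203 took 850 and 795 CPM in the S586A libraries and 577, 423 and 626 CPM in the WT libraries, and Smarcc2-201 took 383 and 375 CPM against 240, 251 and 365 CPM. Smarcc2-202, the form in which the numbering of S586A meets a serine, took 17.8 and 26.9 CPM with S586A and 16.4, 17.0 and 29.3 CPM with WT. Those values overlap the 12.6 to 28.3 CPM of the vector libraries under KCl and lie below the 162 and 158 CPM of NT under KCl. Smarcc2-202 thus did not take up the added RNA in either group, and the split between Smarcc2-201 and Smarcc2-203 depends on how kallisto divides reads between overlapping forms.

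Across the transcriptome, no gene passed the test. Of 20940 genes tested, 0 had an adjusted p under 0.05 (edgeR quasi-likelihood test), and the smallest adjusted p was 0.201. At an unadjusted p under 0.05 there were 1824 genes (8.71%), with 880 higher (4.2%) and 944 lower (4.51%) in S586A. Without S586A replicate 1 this count was 2888 and without S586A replicate 2 it was 769, so it depended on which S586A library remained. In each fit that leaves out an S586A library, the other is alone in its group, and its spread is assumed to be that of the other groups. The values of the 2 groups did not overlap for 2496 genes with S586A higher (11.9%) and 2879 with S586A lower (13.7%). With 2 libraries against 3, an exact permutation test cannot go below p = 0.1. DESeq2, the other tool run, called 11 genes, and the unadjusted counts are used below only to describe lists of genes beside these background shares.

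The precision of the comparison depended on expression. Among the 9584 genes with a mean of at least 10 CPM, the median half-width of the 95% interval of the log2 fold change was 0.24, and 98.1% of the intervals lay within 1 on either side of 0. Among protein-coding genes with at least 1 CPM, 88.0% of 13328 intervals did. Most expressed protein-coding genes therefore had intervals that exclude a doubling or a halving, while smaller differences were within the error.

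The libraries themselves were not equally far apart. Over the 9584 genes, the root-mean-square log2 difference between S586A replicate 1 and WT replicates 1 and 2 was 0.223 and 0.202, beside 0.222 between those WT replicates. S586A replicate 1 was 0.257 from S586A replicate 2. WT replicate 3 was 0.307 and 0.289 from the other WT libraries, and S586A replicate 2 was 0.313, 0.293 and 0.347 from WT replicates 1, 2 and 3. The total of estimated counts ran from 18379962 to 22250230 in the 5 libraries. After TMM scaling, CPM summed over all genes tested were 956617, 978079 and 981372 with WT and 989146 and 1058590 with S586A. Summed levels of lists are therefore not shares of a library, and S586A replicate 2 has the largest total of the 5. Summed neuron markers ran from 5430 to 5472 CPM with WT and were 5422 and 5936 CPM with S586A. The summed astrocyte markers (966, 1293 and 1053 CPM with WT, 1187 and 1049 with S586A), oligodendrocyte-lineage, fibroblast or vessel, and progenitor markers overlapped between the groups. Microglial markers summed to 27.5 to 33.6 CPM with 2 of 11 markers at 0 in all 5 libraries. Clca1, which the study used as a marker of excitotoxicity, was at 0.216, 0.456 and 0.358 CPM with WT and at 0.204 and 0.231 CPM with S586A.

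The BAF complex itself showed little difference apart from Smarcc2. All 30 listed subunits were tested, with a median log2 fold change of 0.04 beside −0.02 over all genes tested. At an unadjusted p under 0.05, 2 were higher (6.67%) and 1 was lower (3.33%), beside 4.2% and 4.51% over all genes tested. Smarcc1 (BAF155), the paralogue that forms the scaffold together with Smarcc2, held 89.7, 85.5 and 79.4 CPM with WT and 85.9 and 87.7 CPM with S586A, a log2 fold change of 0.03 (95% interval −0.14 to 0.21). The values of Smarcc1 overlapped between the groups. Smarcd3 (BAF60C), the neuronal BAF60 subunit, held 39.8, 51.5 and 37.5 CPM with WT and 48.6 and 60.3 CPM with S586A (log2 fold change 0.34, adjusted p = 0.556). Bicral, a subunit of the GBAF form of the complex, had a log2 fold change of −0.14 (adjusted p = 0.571). The log2 fold changes of the ATPase Smarca4 (BRG1), of Arid1a and of the neuron-specific actin-like subunit Actl6b (BAF53B) were 0.05, −0.12 and 0.11. Among 19 other chromatin remodellers the median was 0.00, with Baz1a higher (0.84, adjusted p = 0.548) and Chd1 lower (−0.26, adjusted p = 0.556) at the unadjusted threshold. Each is 5.26% of that list. No polycomb gene reached the threshold, and their median was −0.03.

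Early-response genes were as high in S586A neurons as in the middle of the WT range, and their differences were small against the spread of the WT libraries. Fos, which encodes a subunit of the AP-1 transcription factor, held 197, 106 and 32.7 CPM with WT and 99.8 and 101 CPM with S586A. Resting WT neurons held 5.08 and 4.65 CPM of Fos, and KCl raised it in the WT addback by a log2 fold change of 4.52 (edgeR quasi-likelihood test, adjusted p = 0.00567). Both S586A values lay inside the WT range and far above the resting level. The log2 fold change of Fos between S586A and WT was −0.16 with a 95% interval of −1.17 to 0.85 (adjusted p = 0.95), so differences of about that size in either direction are not excluded by these libraries.

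The same held for the other transcription factors of the early response. Npas4, a neuron-specific factor that acts on inhibitory synapses, held 108, 46.8 and 16.8 CPM with WT and 49.2 and 42.4 CPM with S586A (log2 fold change −0.32, 95% interval −1.43 to 0.80). Egr1 held 303, 232 and 121 CPM with WT and 244 and 197 CPM with S586A (log2 fold change 0.01, 95% interval −0.59 to 0.60). Every S586A value of these genes lay within the range of WT. The AP-1 genes Fosb and Junb had log2 fold changes of −0.04 and 0.22, and the zinc-finger genes Egr2 and Egr4 had 0.34 and 0.16. Nr4a1, an orphan nuclear receptor, had −0.04. Of these, only Egr2 had an S586A value (5.11 and 6.02 CPM) outside the WT range of 2.19 to 5.92 CPM.

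Arc, which encodes a synaptic protein that takes part in removing AMPA receptors, held 328, 180 and 87.3 CPM with WT and 192 and 189 CPM with S586A (log2 fold change −0.06). Dusp1, a phosphatase that switches off MAP kinases, held 62.0, 32.0 and 17.6 CPM with WT and 34.1 and 22.3 CPM with S586A (log2 fold change −0.40). Neither gene separated the groups. Of the 28 early-response genes, all tested, 1 was higher (Ier5, 0.33) and 1 lower (Sik1, −0.30) at an unadjusted p under 0.05. Each is 3.57% of the list, beside 4.2% higher and 4.51% lower over all genes tested. Sik1, a salt-inducible kinase, was also the only member with both S586A values below WT, at 22.1 and 19.8 CPM against 26.8, 24.8 and 25.8 CPM. The median log2 fold change of the list was −0.09.

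That median rested on the WT libraries. The summed early-response level was 2399, 1649 and 1009 CPM in WT replicates 1, 2 and 3, and 1720 and 1532 CPM in S586A, with 716 and 704 CPM in resting WT neurons. Without WT replicate 1 the median of the list was 0.28, and without WT replicate 3 it was −0.28, so its sign was set by a single library. The spread between WT replicates was thus larger than the difference between the constructs.

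**Figure D2:**
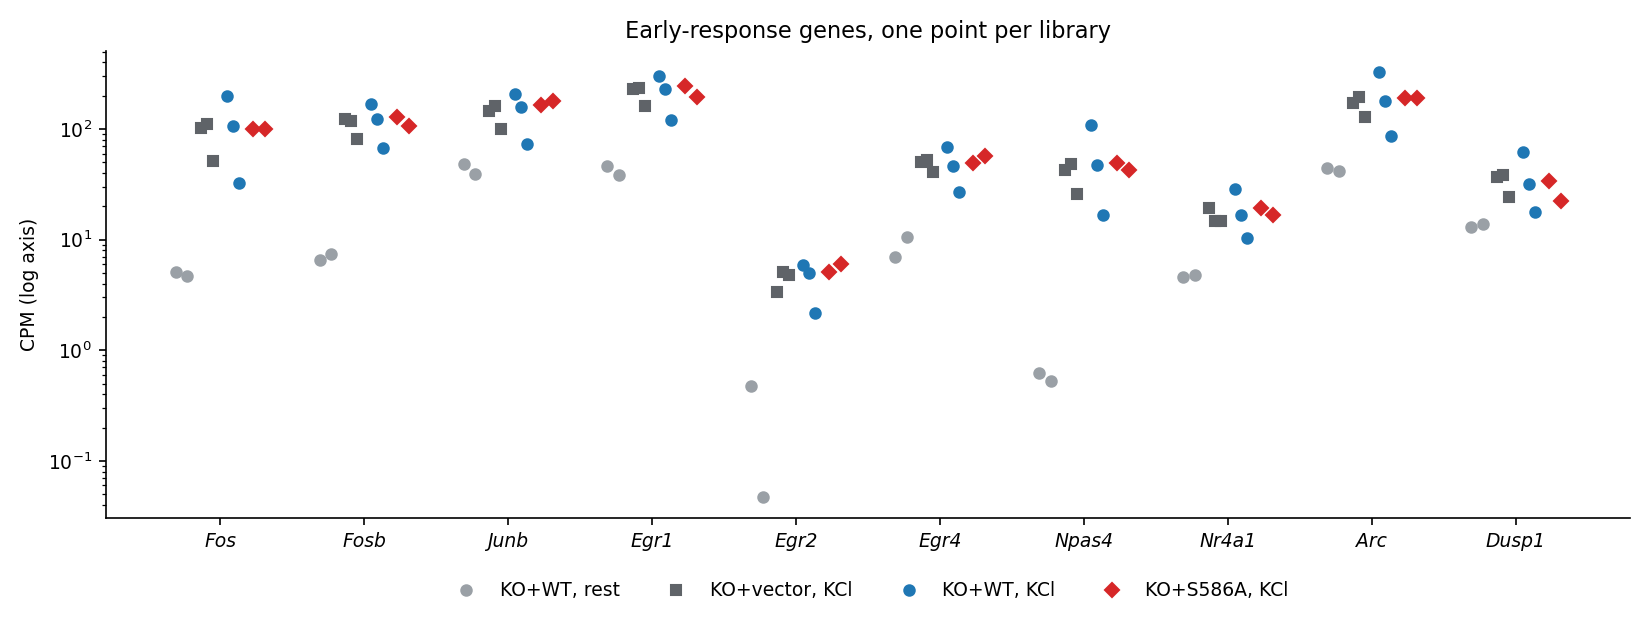
Level of 10 early-response genes in CPM (vertical axis, log scale) in the resting WT (light circles), depolarized vector (squares), depolarized WT (blue circles) and depolarized S586A (diamonds) libraries, each point a library. The S586A points lie within the span of the 3 depolarized WT libraries except for the higher Egr2 value (6.02).

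The other activity-related lists had medians below 0. The late-response list (16 genes) had a median of −0.15. It was −0.03 without S586A replicate 2 and −0.07 without WT replicate 3. Its member Homer1, a postsynaptic scaffold protein with an activity-induced short form, held 139, 141 and 133 CPM with WT and 126 and 114 CPM with S586A (log2 fold change −0.19, adjusted p = 0.556), and its groups did not overlap. With offsets for each library's trend with GC content, an alternative added after seeing the data, the value of Homer1 was 0.08 and the median of the late list was −0.04. Bdnf, a neurotrophin, had a log2 fold change of −0.57 at an unadjusted p of 0.11. A further list came from the DIV7 cultures of the study, which were DMSO-treated wild-type neurons with another RNA selection than the DIV18 libraries. Of the 557 genes that KCl raised at least 2-fold there (2.81% of those tested), 329 were tested at DIV18. Their median was −0.14, and it was −0.24 without S586A replicate 1 and −0.03 without S586A replicate 2. At an unadjusted p under 0.05, 5 were higher (1.52%) and 18 lower (5.47%), beside 4.2% and 4.51% over all genes tested. Many were low at DIV18: 183 had at least 1 CPM in 2 of the 5 libraries, and the median of these was −0.08. The lower genes numbered 27 without S586A replicate 1, and the higher genes 10 without WT replicate 3. Negative regulators of MAP kinase signalling (14 genes) had a median of −0.23, which was −0.05 without S586A replicate 2. Among them, Spred2 held 44.0, 50.9 and 55.8 CPM with WT and 39.5 and 36.4 CPM with S586A (log2 fold change −0.41, adjusted p = 0.483). Dusp7 went the other way, with 69.4, 69.6 and 77.3 CPM against 83.0 and 93.3 CPM (0.29, adjusted p = 0.474). Of the 14 genes, 10 had a negative and 4 a positive log2 fold change, so most but not all lay on the lower side. At the unadjusted threshold 2 were higher (14.3%) and 1 was lower (7.14%).

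Short noncoding RNAs held the genes with the smallest p-values. Y RNAs are RNA polymerase III transcripts bound by the Ro60 protein, and spliceosomal small nuclear RNAs (snRNAs) recognise splice sites and branch sites in introns. The sequences of the 5 that the values below turn on are printed from GRCm38 as annotated in GENCODE M21, 5′ to 3′. Capitals in both Y RNAs mark the longest stretch they share within their first 20 bases. Capitals in the snRNAs mark the bases that pair with the branch site of minor-class introns (Rnu12), with the branch site of major-class introns (Rnu2-10) and with the 5′ splice site (Rnu1a1).
Rny1 (chr6:47788069-47788180, minus strand): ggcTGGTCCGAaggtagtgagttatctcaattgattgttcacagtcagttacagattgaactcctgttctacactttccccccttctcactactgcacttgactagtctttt
Rny3 (chr6:47781624-47781725, plus strand): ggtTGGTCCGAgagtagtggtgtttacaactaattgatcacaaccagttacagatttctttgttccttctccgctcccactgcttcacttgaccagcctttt
Rnu12 (chr15:83149644-83149794, plus strand): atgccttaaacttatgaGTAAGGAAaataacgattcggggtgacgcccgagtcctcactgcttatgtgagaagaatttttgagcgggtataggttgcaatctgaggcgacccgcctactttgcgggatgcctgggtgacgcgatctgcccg
Rnu2-10 (chr11:101658238-101658428, plus strand): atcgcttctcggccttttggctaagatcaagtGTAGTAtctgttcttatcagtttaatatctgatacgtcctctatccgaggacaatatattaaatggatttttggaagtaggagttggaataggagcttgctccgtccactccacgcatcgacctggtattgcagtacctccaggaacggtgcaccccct
Rnu1a1 (chr11:87422867-87423030, plus strand): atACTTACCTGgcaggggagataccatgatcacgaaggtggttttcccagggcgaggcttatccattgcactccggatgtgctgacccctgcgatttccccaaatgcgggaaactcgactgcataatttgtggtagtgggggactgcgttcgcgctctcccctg

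Both Y RNAs were several times higher in the S586A libraries. Rny1 held 44.2, 40.3 and 36.6 CPM with WT and 199 and 154 CPM with S586A (log2 fold change 2.13, SE 0.43, adjusted p = 0.201). Rny3 held 40.9, 36.6 and 41.4 CPM with WT and 173 and 132 CPM with S586A (log2 fold change 1.94, SE 0.35, adjusted p = 0.201). For both, the S586A libraries were well clear of tightly grouped WT libraries. Rnu12, the U12 snRNA of the minor spliceosome, held 7.74, 7.21 and 7.92 CPM against 32.4 and 24.9 CPM (log2 fold change 1.91). Rnu2-10, a U2 snRNA gene, held 162, 164 and 159 CPM against 436 and 382 CPM (1.34), and Rnu1a1, a U1 snRNA gene, held 106, 113 and 102 CPM against 271 and 226 CPM (1.22). Their groups did not overlap either. Rnu2-10 had values identical to those of other copies of its gene, 4 genes in all, and Rnu1a1 was 1 of 7 such genes, so that these are families and not single loci. Snora81, which guides pseudouridylation of ribosomal RNA, held 0.691, 0.639 and 0.716 CPM against 3.53 and 2.66 CPM (2.17, adjusted p = 0.201).

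Most snRNA and snoRNA genes lay on the higher side. Of 41 snRNA genes tested, which hold 27 distinct sets of values, 27 were higher (65.9%) and 0 lower at an unadjusted p under 0.05. For 30 (73.2%), both S586A libraries lay above all WT libraries. Over all genes tested these shares were 4.2% and 11.9%. The median log2 fold change of the snRNA genes was 1.22. Of 86 small nucleolar RNA (snoRNA) genes, 35 were higher (40.7%) and 0 lower, 58 (67.4%) separated the groups with S586A higher, and the median was 0.99. The count of higher snoRNA genes was 19 without S586A replicate 1 and 26 without S586A replicate 2. Among the 15 Cajal-body RNAs (scaRNAs), which guide modification of snRNAs, 3 were higher (20%), and the median was 0.33. The miscellaneous RNA class, to which both Y RNAs belong, had a lower median of 0.16 over 23 genes, with 4 higher (17.4%) and 0 lower. By length, 280 genes whose longest transcript is under 300 bases had a median of 0.52, with 82 higher (29.3%) and 7 lower (2.5%). The longer genes had a median of −0.02. Longer noncoding RNAs made by RNA polymerase III stayed closer to 0. The log2 fold changes were 0.15 for Rn7sk, 0.18 for Rn7s1, 0.14 for Rpph1 and 0.25 for Rmrp, which held 620, 705 and 666 CPM with WT and 718 and 858 CPM with S586A.

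The small RNA difference lay as much in the WT libraries as in those of S586A. Summed snRNA genes held 1925, 1984 and 1876 CPM in WT under KCl and 4839 and 4209 CPM in S586A under KCl. In the other DIV18 groups the sums were 2572 and 3581 CPM in NT under KCl, 2914 and 2735 in NT at rest, 3816 and 2620 in WT at rest, 3704, 4247 and 2380 in S586E at rest, 2947, 3213 and 2138 in vector at rest, and 3190, 3039 and 1338 in vector under KCl. The depolarized WT libraries were therefore the lowest of all groups except for 1 vector library, and the vector group under KCl alone spanned 1338 to 3190 CPM. In S586E against WT at rest, the log2 fold changes were 1.05 for Rny1, 1.00 for Rny3, 0.85 for Rnu12, 0.31 for Rnu1a1, 0.12 for Snora81 and −0.01 for Rnu2-10, with no call. The medians there were 0.31 for snRNA, 0.24 for snoRNA and −0.27 for scaRNA genes. RNA integrity and the recovery of short fragments were not given for these libraries. The mean fragment length that the effective lengths imply was 177 to 179 bases in all 5. Whether the recovery of short RNA contributed was not tested.

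**Figure D3:**
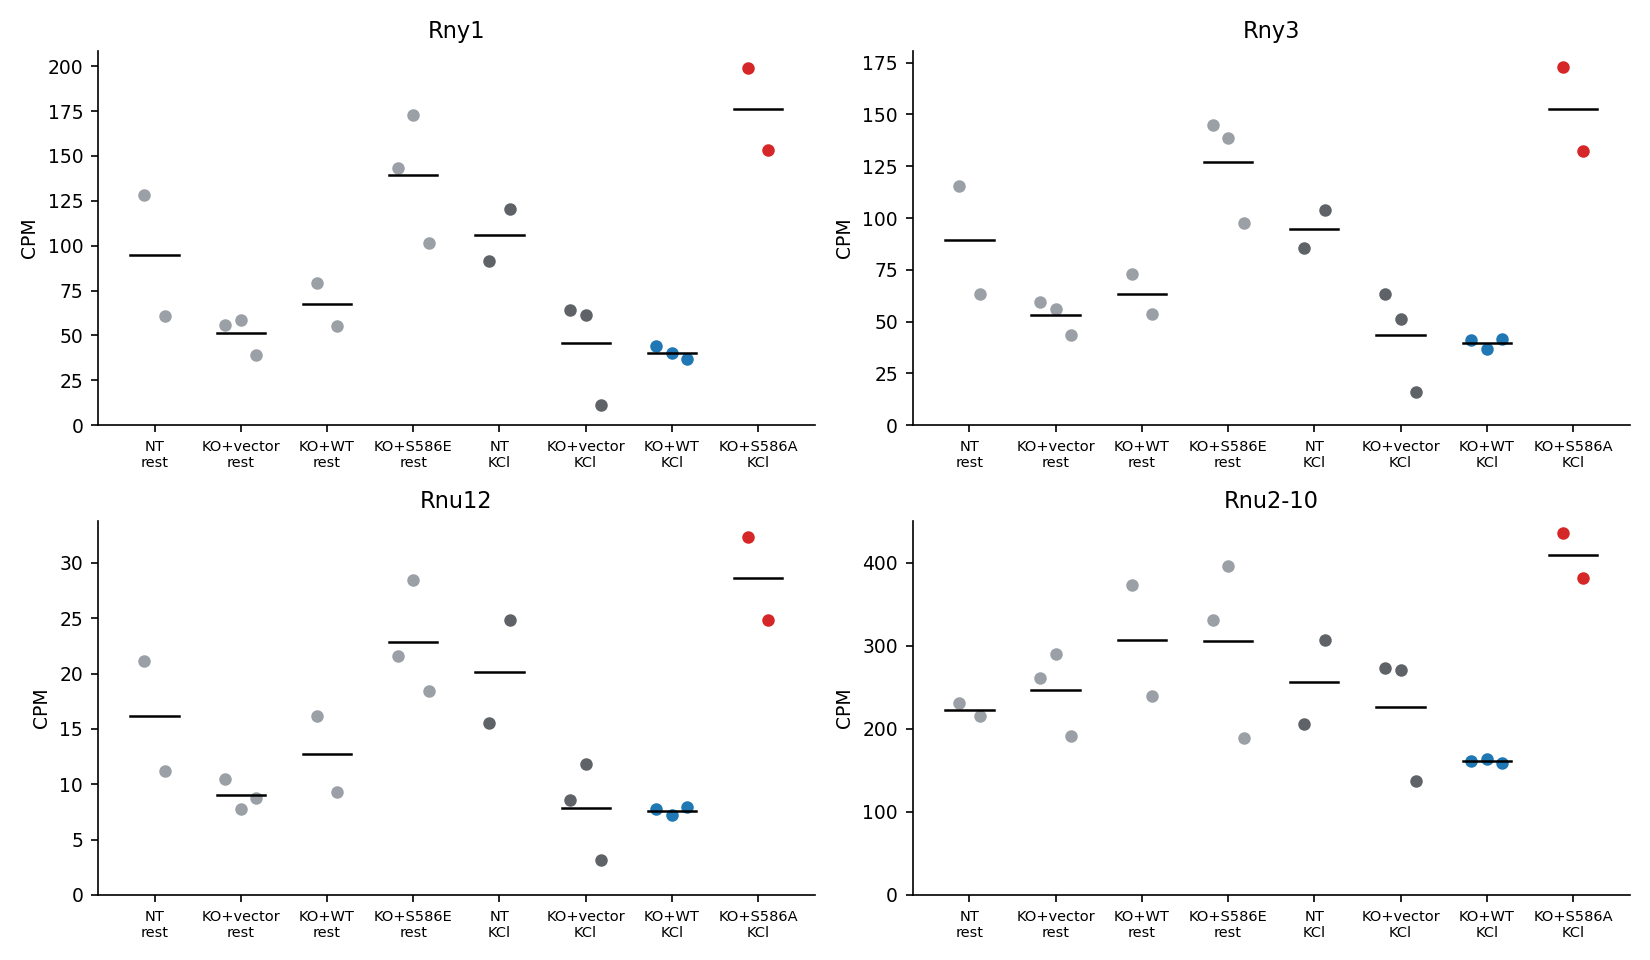
Level of Rny1, Rny3, Rnu12 and Rnu2-10 in CPM (vertical axes, linear) in each of the 20 DIV18 libraries by group, with points for libraries and bars for group means. In all 4 panels both S586A libraries under KCl lie above all 3 WT libraries under KCl (Rny1 at 199 and 154 against 36.6 to 44.2), and the other groups lie mostly between them.

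Several noncoding gene classes leaned to the lower side in the S586A libraries. Genes annotated TEC, which are mostly single-exon models awaiting experimental proof and often lie in introns, numbered 1546 tested. Of these, 7 were higher (0.453%) and 196 lower (12.7%) at an unadjusted p under 0.05, beside 4.2% and 4.51% over all genes tested. The median log2 fold change of the TEC genes was −0.63. Their summed level was 2072, 2123 and 2478 CPM with WT and 1915 and 1558 CPM with S586A. Both S586A libraries lay below WT, and replicate 2 by more. The other DIV18 libraries spanned 1797 to 2851 CPM, with 1931 and 1950 CPM in NT under KCl. S586A replicate 1 lay inside that span and replicate 2 below it. The lower count was 88 without S586A replicate 2 (median −0.43), 244 without S586A replicate 1 (median −0.91) and 117 without WT replicate 3 (median −0.52). Sense-intronic transcripts (122 tested) had a median of −0.57 with 0 higher and 18 lower (14.8%). Without S586A replicate 2 that count was 5 (median −0.31), and without WT replicate 3 it was 7 (median −0.38). Long intergenic (1085 tested, median −0.29, 12 higher and 72 lower, 6.64%) and antisense transcripts (944 tested, median −0.27, 13 higher and 70 lower, 7.42%) went the same way. Without S586A replicate 2 their lower counts were 41 and 44. Protein-coding genes had a median of 0.01, with 730 of 15580 higher (4.69%) and 498 lower (3.2%). These counts were 1362 and 773 without S586A replicate 1, and 187 and 181 without S586A replicate 2. Transcripts annotated as retaining an intron took 1.76%, 1.71% and 1.92% of counts with WT and 1.64% and 1.40% with S586A. The S586A shares were the lowest of the 5, with replicate 1 close to WT replicate 2. The summed level of long intergenic transcripts, in contrast to their median, was not lower, at 42612, 53935 and 45196 CPM with WT and 53696 and 52237 CPM with S586A. The share of unspliced RNA in these total RNA libraries was not measured.

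**Figure D4:**
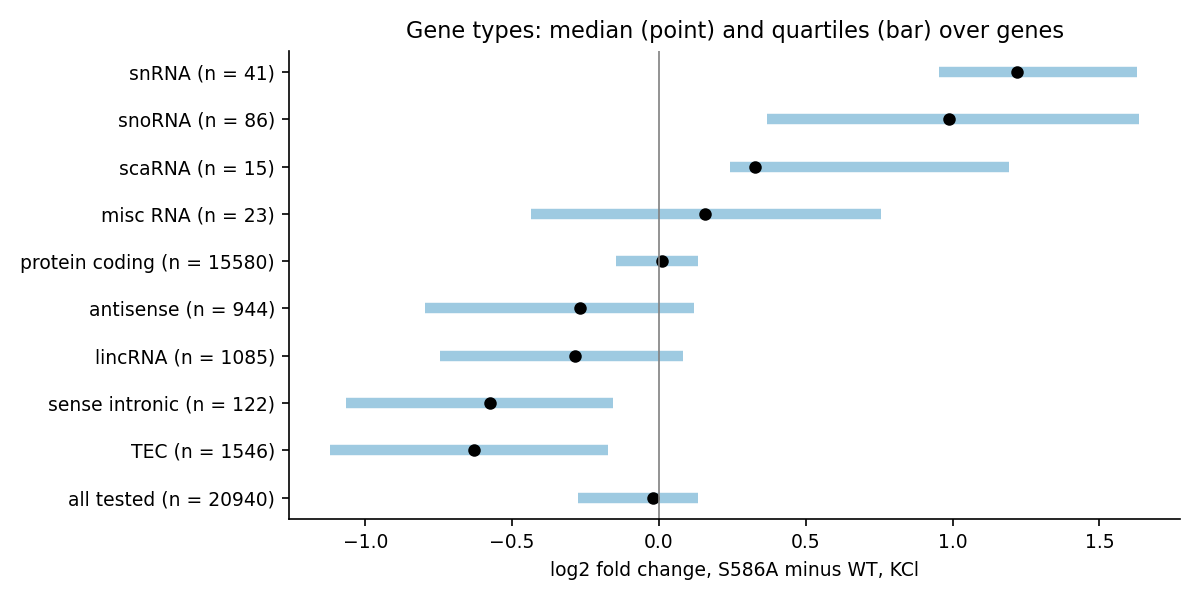
Log2 fold change of S586A against WT under KCl (horizontal axis, log2 units) by annotated gene type, with points for medians over the genes tested and bars for the quartiles. The snRNA and snoRNA genes lie to the higher side (medians 1.22 and 0.99), protein-coding genes lie around 0 (0.01), and TEC and sense-intronic genes lie to the lower side (−0.63 and −0.57).

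Among protein-coding groups, nuclear genes of oxidative phosphorylation, the mitochondrial machinery that makes most of a neuron's ATP, were slightly but broadly higher with S586A. Of 98 listed genes, 91 were tested, and 87 of these had a positive log2 fold change. The median was 0.18, with 32 higher (35.2%) and 0 lower at an unadjusted p under 0.05. The groups were separated with S586A higher for 44 genes (48.4%). Over all genes tested these shares were 4.2% and 11.9%. None of the respiratory genes was called. Summed over the list, WT libraries held 7204, 7259 and 7249 CPM and S586A libraries 7769 and 8727 CPM. The other DIV18 libraries spanned 6692 to 8727 CPM. The count of higher genes was 44 without S586A replicate 1 (median 0.27) and 5 without S586A replicate 2 (median 0.11), where all protein-coding genes gave 187. Without WT replicate 1 it was 21. The size of the difference thus rested mainly on S586A replicate 2.

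All 5 respiratory complexes had a positive median, from 0.13 in complex II to 0.24 in complex III. The higher genes numbered 15 of 47 in complex I (NADH dehydrogenase), 1 of 4 in complex II, 5 of 8 in complex III, 4 of 15 in complex IV and 7 of 17 in complex V (ATP synthase). Ndufv1, which carries the flavin site of complex I, held 105, 104 and 99.7 CPM with WT and 119 and 131 CPM with S586A (log2 fold change 0.28, SE 0.07, adjusted p = 0.356). Ndufa2 held 31.5, 39.9 and 32.2 CPM against 44.7 and 49.3 CPM (0.44, SE 0.12, adjusted p = 0.378). Ndufa9 had a log2 fold change of 0.25. In each of these 3 genes both S586A values were above all WT values. The 13 protein genes of the mitochondrial genome did not follow, with a median of −0.18. That median was 0.03 without WT replicate 3 and 0.07 without S586A replicate 1, and it was 0.16 with offsets for GC content. Of them, mt-Co2, a core subunit of complex IV, was at 597, 574 and 807 CPM with WT and 327 and 432 CPM with S586A (log2 fold change −0.80, adjusted p = 0.561).

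Ribosomal protein genes leaned in the same direction as the nuclear respiratory genes, although their summed level overlapped between the groups. It was 8707, 7792 and 7766 CPM with WT and 8612 and 9272 CPM with S586A. Of 90 listed, 84 were tested and 76 had a positive log2 fold change. At an unadjusted p under 0.05, 14 were higher (16.7%) and 0 lower. The median of the list was 0.13, and 30 genes (35.7%) separated the groups with S586A higher. Over all genes tested, 4.2% were higher and 11.9% separated the groups with S586A higher. The count of higher genes was 4 without S586A replicate 2, 7 without WT replicate 3, 9 without WT replicate 2 and 22 without WT replicate 1. It comprised 5 of 49 genes of the large subunit and 9 of 35 of the small subunit. Rps3 of the small subunit held 152, 140 and 139 CPM with WT and 177 and 184 CPM with S586A (log2 fold change 0.33, SE 0.09, adjusted p = 0.369). Rps9 and Rpl13a had log2 fold changes of 0.27 and 0.26. Ribosomal protein genes have many processed pseudogenes, and kallisto can divide their reads among these copies, so single values are uncertain.

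Glycolysis genes also leaned to the higher side, although their summed level overlapped between the groups. It was 9573, 8205 and 7123 CPM with WT and 8533 and 10065 CPM with S586A. Of 20 tested, 19 had a positive log2 fold change, and the median was 0.15. At the unadjusted threshold 2 were higher (10%, beside 4.2% over all genes tested). They were the lactate dehydrogenase gene Ldhb (0.22) and the pyruvate kinase gene Pkm (0.23). Without WT replicate 1, 11 were higher (median 0.30), without S586A replicate 1, 5 were (median 0.25), without S586A replicate 2, 0 were (median 0.07), and without WT replicate 2 or 3, 1 was (medians 0.13 and 0.05). Pgk1, the phosphoglycerate kinase gene, held 597, 543 and 506 CPM with WT and 601 and 665 CPM with S586A (log2 fold change 0.21, adjusted p = 0.575), while the depolarized vector libraries held 1525, 1367 and 1671 CPM. In S586E against WT at rest, the medians were −0.01 for the respiratory genes, −0.27 for ribosomal protein genes and −0.31 for glycolysis genes, and the difference between the 2 mutants' values was not tested.

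Short and GC-rich messenger RNAs moved with these lists. Among protein-coding genes split into 5 bins by transcript length, the median was 0.09 in the shortest bin, where 7.99% were higher and 1.77% lower. It was −0.05 in the longest, where 1.70% were higher and 6.20% lower. By GC content, it was −0.06 in the lowest bin (1.06% higher, 5.87% lower) and 0.08 in the highest (9.44% higher, 0.963% lower). Genes of the respiratory chain and the ribosome are mostly short. With offsets for each library's trend with GC content, the medians were 0.19 for the nuclear respiratory genes and 0.15 for the ribosomal protein genes. With effective-length offsets they were 0.18 and 0.14. Those length offsets adjust a gene only for changes of its own effective length between libraries. They cannot remove a trend with transcript length across genes, and no fit that removes it was run. With GC offsets the snRNA median was 1.26 and that of TEC genes was −0.50.

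**Figure D5:**
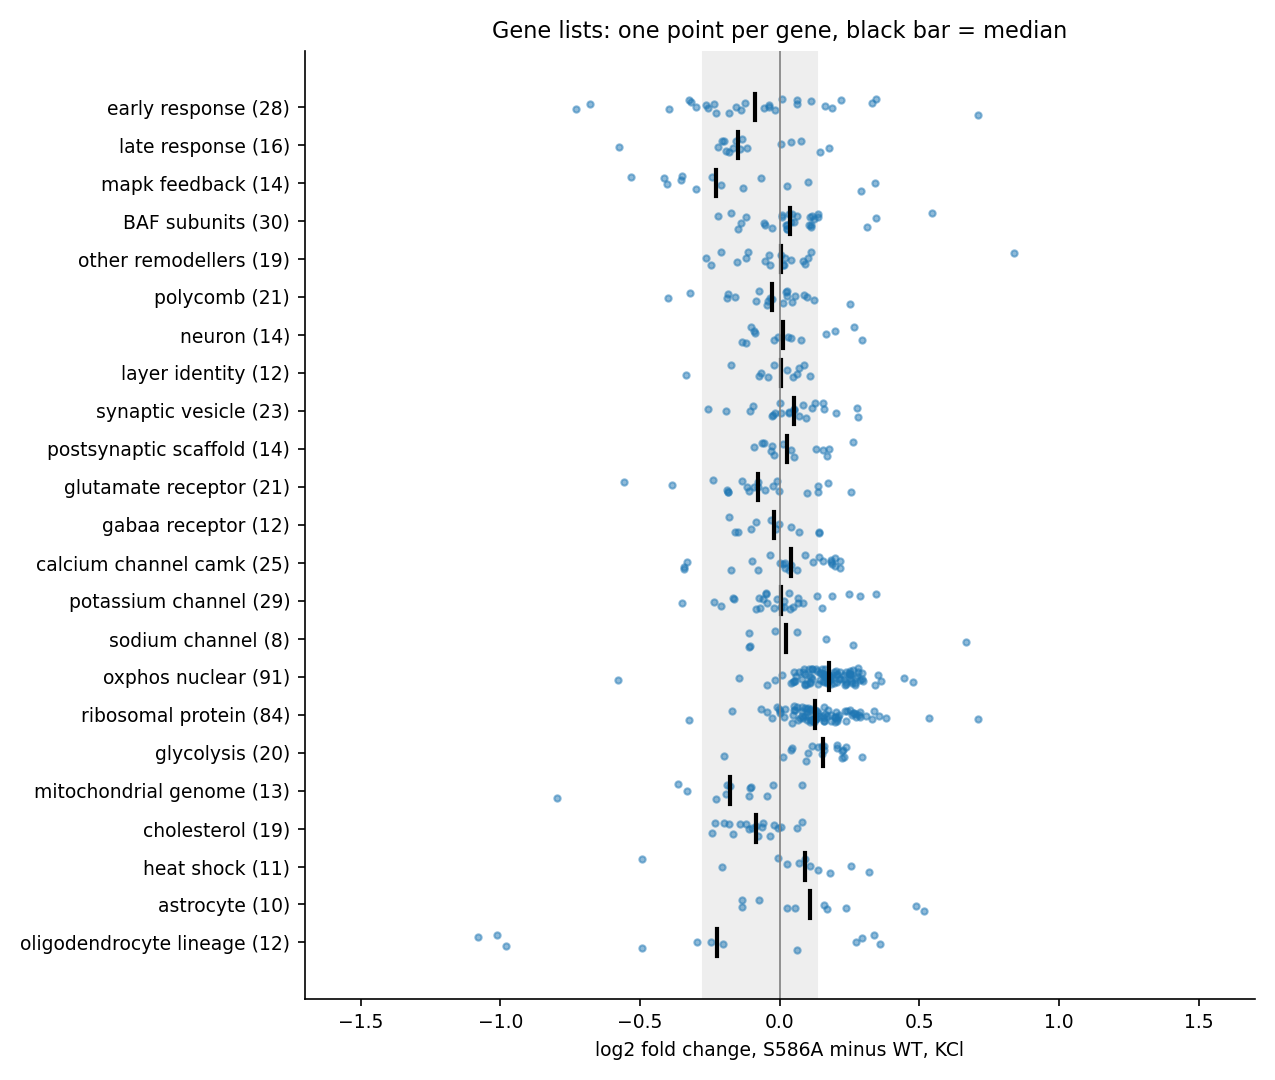
Log2 fold change of S586A against WT under KCl (horizontal axis, log2 units) for the genes of each list, with 1 point per gene, the number tested in brackets, a black bar for the median and a grey band for the quartiles of all genes tested. Nuclear respiratory genes (median 0.18) and ribosomal protein genes (0.13) lie mostly to the right of 0, and the early-response genes (−0.09) lie on both sides.

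Genes of neuronal identity and of the synapse were level between the constructs. Median log2 fold changes were 0.01 for neuron markers, 0.00 for cortical layer identity genes, 0.05 for synaptic vesicle genes, 0.03 for postsynaptic scaffold genes, −0.08 for the 21 glutamate receptor genes and −0.02 for GABA-A receptor genes. Over the alternatives, the medians of the neuron, layer identity, postsynaptic scaffold, GABA-A receptor, potassium channel, sodium channel and protocadherin lists took both signs. No layer identity, glutamate receptor or GABA-A receptor gene reached an unadjusted p under 0.05. Neurod2, a transcription factor of excitatory cortical neurons, held 156, 163 and 142 CPM with WT and 172 and 206 CPM with S586A (log2 fold change 0.30, adjusted p = 0.515). Pclo, which encodes the presynaptic scaffold Piccolo, held 322, 274 and 273 CPM against 247 and 238 CPM (−0.26, adjusted p = 0.517), and Vamp1, a vesicle SNARE, had 0.28. Neurod2 and Pclo separated the groups, in opposite directions. Of postsynaptic genes, Dlg4 (PSD-95) had a log2 fold change of 0.17 and Dlgap3 (SAPAP3) had 0.26, each with overlapping values.

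Ion channel and calcium signalling lists had medians near 0. Medians were 0.04 for calcium channel and CaM kinase genes, 0.00 for potassium channels and 0.02 for sodium channels. Camk2b, the beta subunit of CaM kinase II, held 703, 626 and 646 CPM with WT and 707 and 821 CPM with S586A (0.22, adjusted p = 0.548). Cacnb2, an auxiliary calcium channel subunit, had −0.34, and the potassium channel genes Kcnk1 and Kcnb2 had 0.25 and −0.35. Positive log2 fold changes were found for 18 of 25 calcium channel and CaM kinase genes, 15 of 29 potassium channel genes and 4 of 8 sodium channel genes. Clustered protocadherins, the cell-surface proteins that give neurons individual identities, had a median of −0.02 over 57 tested genes. At an unadjusted p under 0.05, 0 were higher and 3 (5.26%) were lower (Pcdha9, Pcdhb21 and Pcdhga9). The share of lower genes was near the 4.51% over all genes tested. Their variable exons share the constant exons of each cluster, which makes the assignment of reads uncertain. The histone genes (64 tested) had a median of 0.10, and the cholesterol synthesis genes (19 tested) had a median of −0.08 with none at the unadjusted threshold.

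Heat shock genes and stress and apoptosis genes had small medians of opposite sign. The spread between replicates gave each of these medians an SD of 0.135, which is larger in size than either median. Heat shock genes had a median of 0.09 with 8 of 11 positive, and the median ran from 0.05 to 0.20 over the alternatives. Hsph1, a co-chaperone of Hsp70, held 338, 317 and 346 CPM with WT and 379 and 454 CPM with S586A (log2 fold change 0.32, adjusted p = 0.356). Stress and apoptosis genes had a median of −0.13 with 9 of 12 negative, and the median ran from −0.22 to −0.07 over the alternatives. Atf4, the transcription factor of the integrated stress response, had −0.23, and Gdf15, a secreted stress-response cytokine, had −1.31, at 0.864, 0.685 and 1.12 CPM against 0.307 and 0.405 CPM. The adjusted p was 0.561 for Atf4 and 0.565 for Gdf15.

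The protein-coding genes with the smallest p-values and no overlap between groups formed no single pathway on the lists. Mief2, an adaptor for mitochondrial fission, held 16.8, 17.7 and 16.8 CPM with WT and 23.1 and 24.6 CPM with S586A (log2 fold change 0.48, SE 0.10, adjusted p = 0.201). Slc9a3r2 (NHERF2), a PDZ scaffold protein, held 29.0, 30.2 and 30.6 CPM against 39.0 and 38.8 CPM (0.38, adjusted p = 0.304). In both, the groups lay clearly apart, with fold differences under 1.5. Fbxl15, an F-box protein, had 0.50, Dohh, the hydroxylase that completes hypusine in eIF5A, had 0.35, and Cops9, a subunit of the COP9 signalosome, had 0.40, each with an adjusted p of 0.304.

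On the lower side, Fam135b held 120, 111 and 117 CPM with WT and 98.8 and 85.9 CPM with S586A (−0.33, adjusted p = 0.338). D10Wsu102e held 299, 286 and 257 CPM against 223 and 211 CPM (−0.37, adjusted p = 0.355). Rps6ka3 (RSK2), a kinase downstream of ERK, held 37.3, 32.3 and 37.0 CPM against 29.6 and 26.4 CPM (−0.34, adjusted p = 0.356). All 3 separated the groups. Dhrs9, Il10rb, Pycard, Hhat and Ccdc60 had log2 fold changes of −1.23, −1.18, −1.42, −1.15 and −1.28, with means under 5 CPM in both groups. With the same minimum of 1 CPM, the largest lower values among non-overlapping genes were Cpa6 (−1.75), Dock5 (−1.68), Olfr607 (−1.48) and Bpifc (−1.46), all at a few CPM or less. Among genes with a mean of at least 1 CPM, the largest higher values were Mir6236 (3.75), which held 8.00, 2.74 and 0.716 CPM with WT and 85.5 and 17.5 CPM with S586A, and AA474408 (3.13), with 6.44, 4.02 and 3.62 CPM against 66.8 and 15.3 CPM. For both of these, S586A replicate 1 was several times higher than replicate 2, and other DIV18 libraries reached 221 CPM of Mir6236 and 198 CPM of AA474408.

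Genes that differed between the knockout with vector and NT were set out last. Their contrast shares no library with S586A or WT under KCl. Depolarized knockout neurons with vector had 408 genes called lower than NT (1.95% of those tested) and 152 called higher (0.726%). The 408 lower genes had a median of 0.05 between S586A and WT, with 38 higher (9.31%) and 10 lower (2.45%) at an unadjusted p under 0.05. Over all genes tested, 4.2% were higher and 4.51% lower. Without S586A replicate 1 these counts were 63 and 20, without S586A replicate 2 they were 9 and 3, and without WT replicate 1 they were 25 and 9. The 152 higher genes had a median of 0.08, with 14 higher and 1 lower (25 and 1 without S586A replicate 1, 5 and 0 without S586A replicate 2). In the full fit, the 14 and 1 are 9.21% and 0.658% of that list. Of the genes called at rest, the 790 lower in the knockout (3.77%) had a median of −0.01, with 33 higher (4.18%) and 24 lower (3.04%). The 446 higher in it (2.13%) had a median of 0.05, with 37 higher (8.30%) and 12 lower (2.69%). Without S586A replicate 2 these counts were 8 and 8, and 8 and 2, and without WT replicate 1 they were 49 and 17, and 19 and 17, so they too varied with single libraries. The S586A and WT constructs were thus close in the bulk of the genes that the knockout lowered or raised. Under KCl, the lower list had medians against NT of −0.54 with vector, −0.40 with WT and −0.36 with S586A. The higher list had 0.77, 0.52 and 0.53. Both the vector and the NT values had been used to pick these lists, so every median against NT can be shifted by that choice. Whether either construct brought the genes to the NT level can therefore not be read from them. WT against vector called 2 genes, so a return of the listed genes with Smarcc2 was not shown.

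Among single genes called between the knockout and NT, some lay closer to the knockout with S586A than with WT. Of those lower in the knockout under KCl, 38 were higher with S586A, Smarcc2 itself among them, and 10 were lower. As given above, these counts varied with single libraries. Zc3h11a (ENSMUSG00000116275.1, GRCm38 chr1:133619871-133661380, minus strand), which encodes a zinc-finger protein of mRNA export, held 29.9, 18.3 and 31.3 CPM with WT and 11.3 and 15.8 CPM with S586A. It held 23.1 and 25.8 CPM in NT under KCl and 10.0, 14.4 and 10.2 CPM in vector under KCl. The S586A values lay below all WT and NT values and in the range of the knockout or slightly above it. The log2 fold change of S586A against WT was −0.97 (SE 0.22, edgeR adjusted p = 0.304). DESeq2 gave an adjusted p of 0.0388, and edgeR with no low-count filter gave 9.16e-08. The adjusted p of the other alternatives ran from 0.228 to 0.709. Vector against NT was −1.08 under KCl (edgeR adjusted p = 0.014) and 0.28 at rest (adjusted p = 0.492). Another annotated gene carries the same symbol, so the division of reads between them is uncertain.

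Dock5, an activator of the GTPase Rac, held 1.61 and 2.61 CPM in NT, 0.768, 0.652 and 0.587 CPM in vector, 1.21, 1.83 and 1.66 CPM in WT and 0.613 and 0.347 CPM in S586A, all under KCl. The S586A values were below all WT values (log2 fold change −1.68, adjusted p = 0.338). Mnt, a MAX-binding repressor chosen after its values were seen, had the same order, with 38.5 and 41.2 CPM in NT, 28.9, 30.8 and 32.2 CPM in vector, 36.8, 35.5 and 37.5 CPM in WT and 30.2 and 30.8 CPM in S586A (log2 fold change −0.26). The opposite order was found in Gm42826, a TEC gene chosen after its values were seen, with 44.7 and 71.3 CPM in NT, 18.2, 20.6 and 7.23 CPM in vector, 16.1, 17.7 and 18.2 CPM in WT and 80.1 and 57.3 CPM in S586A (log2 fold change 1.99, adjusted p = 0.201). Gm37357, another TEC gene chosen in this way, had 0.99 (adjusted p = 0.201). Adora1, the adenosine A1 receptor gene, also chosen after its values were seen, had this order as well. It held 451 and 451 CPM in NT, 325, 300 and 272 CPM in vector, 319, 334 and 321 CPM in WT, and 360 and 398 CPM in S586A (0.23), where S586A lay nearer to NT than WT did. Single genes therefore went both ways, and none of these differences between the constructs was called in the edgeR fit of all 20 DIV18 libraries with its low-count filter.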

How the data were processed

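Per the file headers, the deposited tables give an estimated count, a TPM and an effective length for each transcript. The submitters' processing notes name FastQC, cutadapt and kallisto. The versions, the genome build and the annotation are not given in the sources used here. The estimated counts deposited by the authors were added up over the transcripts of a gene and then rounded. The TPM values deposited by the authors were used only for transcript forms and length averages, and the effective length deposited by the authors only for length offsets and fragment length. Of 142552 transcripts, 141429 (99.2%) matched GENCODE M21 on GRCm38 by identifier and fell into 55177 genes. The unmatched transcripts, with no more than 0.467% of any library's counts, were not used.

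The 20 DIV18 libraries (8 groups) were fitted together with edgeR 4.0.16 in R 4.3.3 (TMM, filterByExpr, two-sided quasi-likelihood F test, Benjamini-Hochberg adjustment, called under 0.05), which left 20940 genes, 12 residual degrees of freedom and a common biological coefficient of variation of 14.6%. CPM are TMM-scaled. Separated genes are those in which the libraries of the 2 groups do not overlap. Confidence intervals (95%) use the moderated spread of the fit. DESeq2 1.42.0 and the other alternatives are described in the closing section. Counts were simulated for this comparison (41147 genes) with the fitted spread. The changed genes were drawn only from those with a mean of at least 1 CPM over the libraries compared. Of these, 58% of genes changed by 1 log2 unit and 88% of those changed by 2 were recovered, with 5.81% false calls. Recovery among genes below that level was not simulated.

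The genes named were Smarcc2, Smarcc1, Pgk1, Clca1, 10 early-response genes and up to 3 genes per list at an unadjusted p under 0.05. In addition, in each direction, the 10 genes with the smallest p and the 4 with the largest log2 fold change were named among genes of at least 1 CPM with separated groups and a symbol that is no predicted gene. Other genes were chosen after their values were seen. The comparison and the gene lists were chosen with earlier results of these data known. GENCODE genes sharing sequence have uncertain counts, and p-values measure the spread between these cultures.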

Additional observations from a re-analysis of the deposited data

How the results depend on the processing

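No gene was called with median-of-ratios size factors, with a stricter filter (at least 1 CPM in 2 of the 5 libraries), with effective-length offsets, with the robust fit, with only the depolarized DIV18 libraries or, in alternatives added after seeing the data, with only protein-coding genes, only genes of at least 300 bases or GC-trend offsets. DESeq2 called 11 genes (7 higher, 4 lower), the fit of only the 5 libraries compared called 22 (21 higher, 19 of them small RNAs), and the fit with no low-count filter called 225. Leaving out 1 library gave 0 to 1 calls, the 1 being Cdk5r2 without S586A replicate 1. Smarcc2 had a log2 fold change of 0.56 (edgeR adjusted p = 8.68e-07) with no low-count filter. The number of genes at an unadjusted p under 0.05 was 2805 with no low-count filter and 769 to 2888 with 1 library left out. Deviations of same-numbered S586A and WT libraries correlated at r = 0.040 and 0.007 across genes. With 2 S586A libraries these deviations mirror each other, so exchanging the S586A libraries gave −0.040 and −0.007. The values therefore do not decide whether the replicate numbers pair the samples. With the replicate number as a block, 1 gene was called, Smarcc2 (0.66, adjusted p = 0.0112). Of the 79 genes named by the rule, 68 kept the sign of their log2 fold change under the alternatives run for them, and the 11 that did not were Smarcc1, Homer1 and early-response genes. The cause of these differences was not tested. With 2 S586A libraries, the median half-width of the 95% interval was 0.24 log2 units in genes of at least 10 CPM and 0.50 over all genes.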
